A study of Homo sapiens with 6 samples.

Results

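The mitochondrial ribosomal protein genes are the nuclear genes, named MRPL or MRPS and a number, that encode most proteins of the mitochondrial ribosome. They were taken as the rows whose mapped gene symbol begins in that way, without pseudogenes or antisense transcripts, and whose linear value (2 raised to the deposited log2 value) averaged at least 10 over the 6 libraries. This left 75 genes of 57820 rows in the table, and of 14763 genes that passed the same minimum and were tested. Messenger RNA had been profiled in hTert-HME1, a human mammary epithelial line immortalised with telomerase. The cells had received an siRNA by RNAiMAX transfection, had recovered, and were then kept in mammary epithelial growth medium that held EGF, the growth factor that activates the receptor EGFR, or lacked it. Of the libraries, 2 came from the siRNA BRCA2-2 without EGF at passage 6 (-EGF libraries A and B), and 2 from the siRNA control-1 with EGF at passage 6 (control libraries A and B). Another 1 library carried the label BRCA2-2 with EGF at passage 4 (the library labelled BRCA2 P4), and 1 came from control-1 with EGF at passage 4 (control P4). All 6 libraries thus shared the cell line and the transfection reagent, each siRNA was represented by 1 design, and the siRNA and the medium changed together at passage 6. Control siRNA without EGF is part of the series text, but none of the 6 libraries came from it.

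The mitochondrial ribosome translates the few messenger RNAs of the mitochondrial genome, which encode subunits of the respiratory chain and of ATP synthase. Its ribosomal RNAs are made in the mitochondrion. Its proteins are made in the cytosol and imported, so a working ribosome needs products of both genomes. Its large subunit joins amino acids and its small subunit reads the message. Some of its proteins descend from bacterial ribosomal proteins, and others are found in mitochondrial ribosomes only.

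The files hold normalised log2 values, so the depth behind each value is not known and counting error cannot be computed. BRCA2, the targeted gene, had log2 values of 11.15 and 10.89 in the -EGF libraries, against 11.25 and 11.24 in the passage 6 controls. It had 10.88 in the library labelled BRCA2 P4, against 10.19 in control P4, so the label of that library is not borne out by its target. At passage 6 both -EGF libraries lay below both controls, but -EGF library A only slightly. These values alone do not establish that BRCA2 mRNA was depleted there. Control libraries A and B lay close together, the SD of A minus B over tested genes being 0.119, compared with 0.308 in the -EGF pair. Of 7 epithelial markers, 6 passed the minimum and EPCAM did not. The summed linear value of these 7 markers was 425243 to 494176 in the -EGF libraries and 269318 to 273017 in the passage 6 controls. Of 10 fibroblast markers 8 passed, with COL1A2 and PDGFRA below the minimum, and their sum was 6918.5 to 7099.5 in the -EGF libraries and 2229.3 to 2589.7 in the passage 6 controls. At passage 4 the epithelial sum was 245718 in the library labelled BRCA2 P4 and 280779 in control P4, and the fibroblast sum 4354.3 in the library labelled BRCA2 P4 and 2434.8 in control P4. Of 4 endothelial markers found, KDR and TEK passed and CDH5 and VWF did not, and their sum was 592.4 to 780.8 in the -EGF libraries and 284.9 to 312.7 in the passage 6 controls, with 373.4 in the library labelled BRCA2 P4 and 1101.8 in control P4. None of 6 haematopoietic markers passed, their sum was 6.7 to 8.2 in every library, and CD3E and HBB were listed at a log2 value of 0 in all 6, as was the endothelial marker CDH5. The epithelial, fibroblast and endothelial sums were thus higher in the -EGF libraries than in the passage 6 controls, whereas the mitochondrial ribosomal protein genes were lower, and the part of these markers in the results below was not tested. In bulk RNA, fewer cells of a kind and less RNA per cell cannot be told apart.

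Of 156 rows whose symbol begins with MRPL or MRPS and a digit, 80 were pseudogenes, antisense or otherwise derived transcripts, and 76 carried the plain gene name. The 1 of these below the minimum was MRPL30, with log2 values between -1.07 and -0.99 in all 6 libraries. Just inside it lay MRPL38, with a mean linear value of 25.1, and MRPS24, with 31.8. No row was matched to MRPL45 or MRPS21. By the assignment of proteins to subunits, 49 of the 75 belong to the large subunit and 25 to the small one, and MRPS30 and MRPS18A count with the large subunit despite their names. MRPS36, the remaining member, is a component of the 2-oxoglutarate dehydrogenase complex and not of the ribosome. The genes lie on 21 chromosomes, with at most 7 on any of them.

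Taken library by library, mitochondrial ribosomal protein mRNA was lowest without EGF and highest at passage 4. The 75 genes made up 0.201% and 0.203% of all summed linear values in the -EGF libraries, against 0.244% and 0.239% in the passage 6 controls, 0.268% in the library labelled BRCA2 P4 and 0.255% in control P4. The median log2 value of the 75 was 9.40 and 9.45 in the -EGF libraries, against 9.67 and 9.63 in the passage 6 controls, 9.75 in the library labelled BRCA2 P4 and 9.85 in control P4. The median over all tested genes moved less, between 8.83 and 8.93. Set against each gene's own mean over the 6 libraries, the median member stood at -0.22 and -0.21 without EGF. It stood at 0.07 and 0.04 in the passage 6 controls, 0.15 in the library labelled BRCA2 P4 and 0.19 in control P4. Large-subunit genes took 0.126% in both -EGF libraries and 0.152% to 0.154% in the passage 6 controls. Small-subunit genes took 0.0741% to 0.0760% in the -EGF libraries and 0.0863% to 0.0886% in the passage 6 controls.

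**Figure D1:**
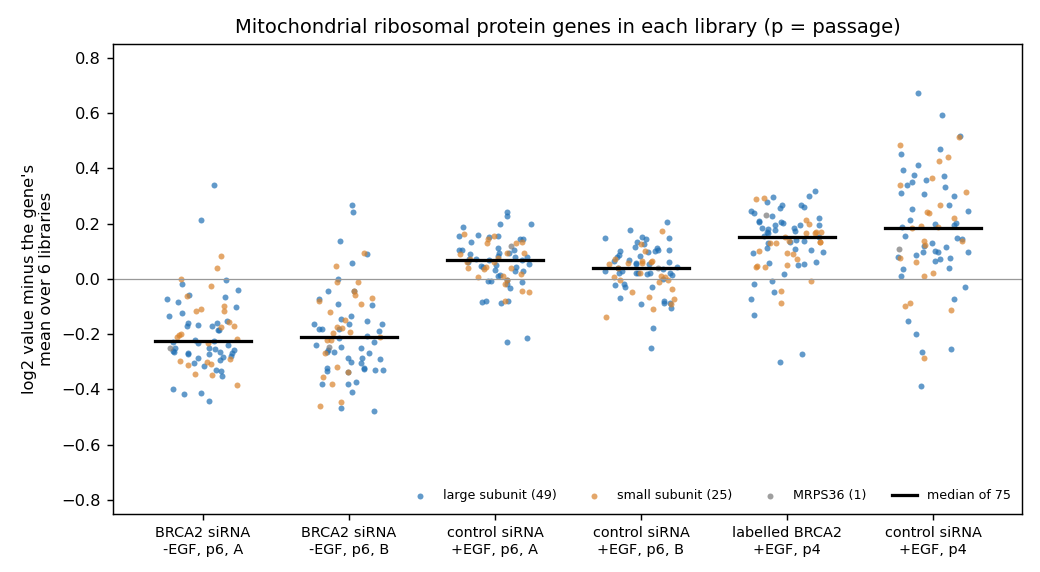
Each point is 1 mitochondrial ribosomal protein gene in 1 library, plotted as its log2 value minus its mean over the 6 libraries, and coloured by subunit; the black bar is the median of the 75 genes. The medians of the 2 -EGF libraries (-0.22 and -0.21) lie below those of the other 4 libraries (0.04 to 0.19).

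At passage 6, cells that had received BRCA2 siRNA and grew without EGF carried less mitochondrial ribosomal protein mRNA than control cells with EGF, by a small amount that was spread over most of the genes. Of the 75 genes, 69 had a log2 difference below 0, and the median difference was -0.24, a linear change of -15.2%. The interquartile range of the differences was -0.35 to -0.18, and the whole range -0.54 to 0.34. Over all tested genes, 52.7% were below 0 and the median was -0.02. Both -EGF libraries lay below both passage 6 controls for 62 genes (82.7%), which was the case for 35.7% of all tested genes, and above both for 3 (4.0%), compared with 29.2%. Both -EGF libraries lay below all 4 others, passage 4 included, for 56 genes (74.7%), compared with 22.2% of tested genes.

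In the test of single genes (limma, Benjamini-Hochberg over all tested genes), 8 of 75 genes fell and 0 rose. The background of this comparison is 2.88% of tested genes lower and 3.56% higher at an adjusted p below 0.05. The 8 genes were 10.7% of the members. Without adjustment, 47 of the 75 (62.7%) had a p below 0.05, as did 31.5% of all tested genes. The count of 8 rests on the spread of few libraries: it was 0 without control A and 0 without control B, 58 without -EGF library A (56 lower, 2 higher) and 60 without -EGF library B (59 lower, 1 higher). Those last 2 fits called far more genes of every kind: without -EGF library A 74.7% of members were lower, compared with 32.6% of all tested genes, and 28.2% of tested genes were higher. Without -EGF library B 78.7% of members were lower, compared with 28.5% of all tested genes, and 18.7% of tested genes were higher. It was also 0 under quantile normalisation and 4 with each library centred on its median. The count of genes below 0 was 67 to 71 of 75 under all of these.

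Of the 8, 6 encode large-subunit proteins. MRPL15, whose bacterial relative is L15, had log2 values of 9.59 and 9.73 in the -EGF libraries, against 10.20 and 10.15 in the passage 6 controls, 10.32 in the library labelled BRCA2 P4 and 10.01 in control P4. It fell by 0.51 ± 0.09 (SE, adjusted p = 0.0425). MRPL17, a relative of bacterial L17, had 10.25 and 10.06 without EGF, against 10.65 and 10.67 in the passage 6 controls, with 10.78 in the library labelled BRCA2 P4 and 10.84 in control P4. It fell by 0.50 ± 0.09 (SE, adjusted p = 0.0493). For both genes the -EGF libraries were the lowest of the 6 and did not overlap any other library. MRPL13, a relative of bacterial L13, had 9.75 and 9.65 without EGF, against 10.22 and 10.12 in the passage 6 controls. MRPL20, a relative of bacterial L20, had 10.22 and 10.09 without EGF, against 10.64 and 10.61 in the passage 6 controls. They fell by 0.47 ± 0.08 each (SE, adjusted p = 0.0462 for MRPL13 and 0.0442 for MRPL20). MRPL3, whose bacterial relative lies near the site where peptide bonds are made, had 11.77 and 11.73 without EGF, against 12.18 and 12.14 in the passage 6 controls. It fell by 0.41 ± 0.07 (SE, adjusted p = 0.0444). MRPL39, a protein found in mitochondrial but not bacterial ribosomes, had 10.32 and 10.34 without EGF, against 10.71 and 10.76 in the passage 6 controls, and fell by 0.40 ± 0.07 (SE, adjusted p = 0.0452). In all 4 of these genes too, both -EGF libraries lay under every other library. The 6 genes were picked by the passage 6 test, so their order against its controls follows from that choice.

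The other 2 encode small-subunit proteins. MRPS23, a mitochondria-specific protein, had the lowest difference of all members. Its log2 values were 9.79 and 9.64 in the -EGF libraries, against 10.25 and 10.26 in the passage 6 controls, 10.25 in the library labelled BRCA2 P4 and 10.33 in control P4. It fell by 0.54 ± 0.08 (SE, adjusted p = 0.0374), a linear change of -31.2%. All 4 libraries with EGF lay within 0.08 of each other for this gene, and both -EGF libraries lay below them. MRPS6, a relative of bacterial S6, had 9.98 and 10.01 without EGF, against 10.44 and 10.43 in the passage 6 controls, 10.66 in the library labelled BRCA2 P4 and 10.68 in control P4. It fell by 0.44 ± 0.07 (SE, adjusted p = 0.0376). Over the 16 alternatives that could be fitted, the differences of the 8 genes were between -0.61 and -0.34, while their adjusted p reached 0.532. The 8 genes were picked by this same difference. Alternatives that change only the filter, the spread or the adjustment, or leave out a passage 4 library, cannot move it. That the differences stayed below 0 was thus in part fixed in advance.

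**Figure D2:**
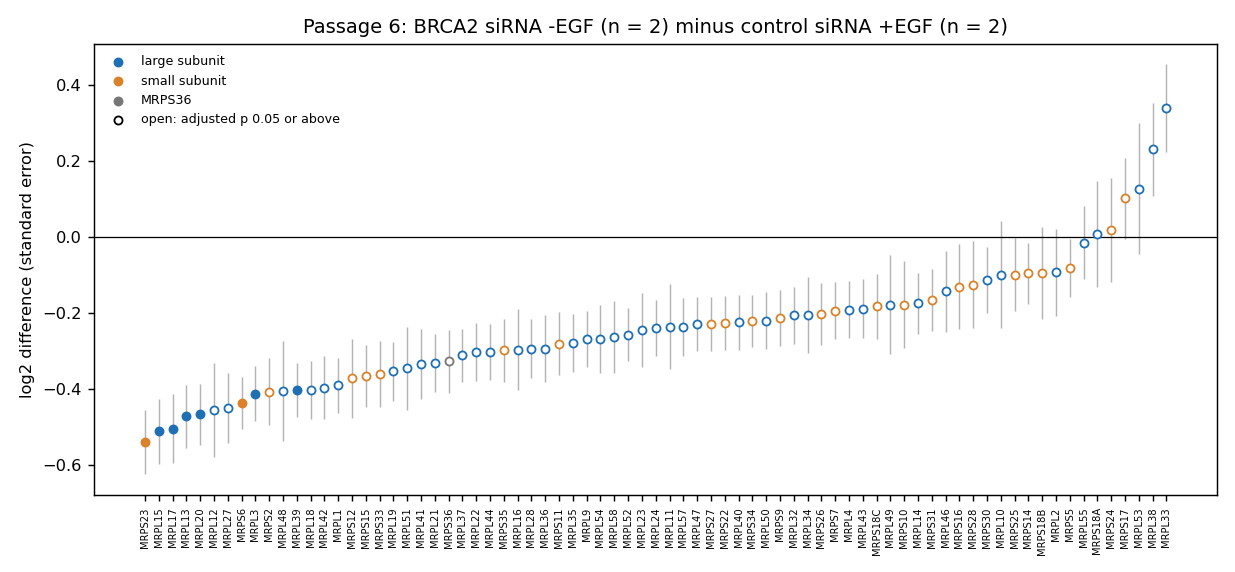
The log2 difference of each of the 75 genes at passage 6, BRCA2 siRNA without EGF minus control siRNA with EGF (2 libraries each), in rising order; lines are 1 standard error of the limma fit, filled points passed the threshold and colours mark the subunit. Of the 75 points, 69 lie below 0, and the 4 highest are MRPS17, MRPL53, MRPL38 and MRPL33.

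Both subunits had medians below 0, and a difference between them was not tested. Of 49 large-subunit genes 45 were below 0, with a median of -0.27 and 6 that fell. Of 25 small-subunit genes 23 were below 0, with a median of -0.20 and 2 that fell. Genes with a bacterial relative had a median of -0.24 (46 genes, 42 below 0) and mitochondria-specific ones had -0.23 (28 genes, 26 below 0). MRPS36, the member outside the ribosome, had a difference of -0.33 ± 0.08 (SE, adjusted p = 0.0799).

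The 6 genes that were not below 0 were MRPL33, MRPL38, MRPL53, MRPS17, MRPS24 and MRPS18A. MRPL33, a relative of bacterial L33, was the highest. Its log2 values were 9.93 and 10.21 in the -EGF libraries, against 9.74 and 9.72 in the passage 6 controls, 10.17 in the library labelled BRCA2 P4 and 10.05 in control P4. The passage 6 controls were the lowest libraries for this gene, and the difference of 0.34 ± 0.12 (SE) did not pass the test (adjusted p = 0.128). MRPL38, a mitochondria-specific large-subunit protein, had 4.85 and 4.91 without EGF, against 4.56 and 4.74 in the passage 6 controls. Its difference was 0.23 ± 0.12 (SE, adjusted p = 0.259), and it was the only member with both -EGF libraries above all 4 others (1.3% of members, compared with 16.6% of tested genes). MRPL53 had a difference of 0.13 ± 0.17 (SE, adjusted p = 0.641), and it was -0.03 without control B and -0.01 without -EGF library A. MRPS17 had 0.10 ± 0.11 (SE, adjusted p = 0.542), and -0.01 under quantile normalisation.

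These 6 genes differ from most members in level and in what else lies in their exons. Of the 6, 4 had a mean linear value below 100, as did only 6 of the 75. In the GENCODE v29 annotation, made on GRCh38 and not on the authors' hg19, 5 of the 6 share at least 20% of their exon bases with another gene on the same strand, and 7 of the 75 do. MRPL33 shares 21% with BABAM2, MRPL38 37%, MRPL53 45%, MRPS17 27% and MRPS24 23%, and how the authors counted reads in such exons is not given in the sources used here. Of the other members with that much overlap, MRPL12, the mobile stalk protein of the large subunit, shares 68% and had a difference of -0.46 ± 0.12 (SE, adjusted p = 0.0905), and MRPS28 shares 36% and had -0.12 ± 0.11 (SE, adjusted p = 0.492). Of the 37 genes with under 1% of their exon bases shared on either strand, 37 were below 0 and their median was -0.29. This split was chosen after the values were seen and is given as a description.

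**Figure D3:**
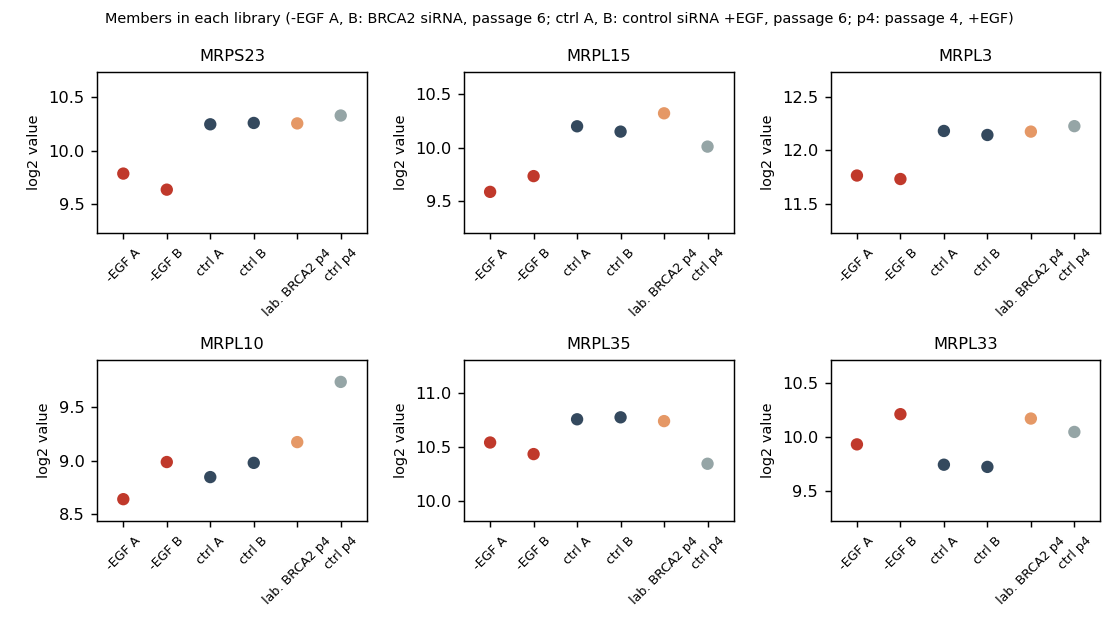
The deposited log2 value of 6 genes in each library, 1 point per library, on axes of equal span. MRPS23, MRPL15 and MRPL3 are lowest in the 2 -EGF libraries, MRPL10 is highest and MRPL35 lowest in control P4, and MRPL33 is lowest in the 2 passage 6 controls.

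Among cells labelled BRCA2 siRNA, those without EGF at passage 6 also carried less of these mRNAs than the library with EGF at passage 4, a comparison in which medium and passage changed together. Of the 75 genes 70 were below 0, with a median of -0.37, a linear change of -22.7%, and 24 fell and 0 rose. Over all tested genes 52.0% were below 0, the median was -0.02, and the background is 8.89% lower and 7.41% higher, compared with 32.0% of members lower. This comparison shares the -EGF libraries with the previous one, so the 2 are not independent. With 1 library at passage 4, the spread of that group was taken from the others. The count of 24 was 0 without control A and 0 without control B, which enter through the spread only, 55 without -EGF library A (54 lower) and 65 without -EGF library B (63 lower). In these 2 fits 72.0% and 84.0% of members were lower, compared with 33.1% and 33.4% of all tested genes. It was 15 after median centring, 9 under quantile normalisation and 1 with replicate letters as a block.

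The gene with the smallest p was MRPS6, which had 9.98 and 10.01 in the -EGF libraries, against 10.66 in the library labelled BRCA2 P4, and fell by 0.66 (limma adjusted p = 0.0227). MRPS15, a small-subunit relative of bacterial S15, had 10.68 and 10.61, against 11.28, and fell by 0.63 (adjusted p = 0.0276). Of the large-subunit genes, MRPL15 fell by 0.66, MRPL36 by 0.63, MRPL17 by 0.62, MRPL20 by 0.61, MRPL18 by 0.54, MRPL37 by 0.46 and MRPL39 by 0.45, and in the small subunit MRPS2 fell by 0.60. In each of these 10 genes both -EGF libraries lay below the library labelled BRCA2 P4. The genes were picked by this same comparison, so that order adds nothing to it. The highest members, none of which passed, were MRPL38 at 0.54, MRPL53 at 0.47, MRPL46 at 0.19 and MRPS25 at 0.09.

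Between passages, in control cells with EGF, the genes split. Of the 75, 8 fell and 2 rose at passage 6 relative to passage 4, 55 (73.3%) were below 0 and the median was -0.12. Over all tested genes 52.4% were below 0 and the median was -0.03. The background is 12.4% lower and 7.71% higher, so the members' 10.7% lower and 2.7% higher were no larger shares than those of all tested genes. Over all tested genes 1825 fell and 1138 rose, and after median centring 1339 fell and 1488 rose. The member split was 2 lower and 3 higher after median centring and 1 lower and 2 higher under quantile normalisation, and their median was then -0.05 and -0.03. The count of 10 was 0 with either passage 6 control left out and 44 without -EGF library A or without -EGF library B, 58.7% of members, in fits that called 66.6% and 66.7% of all tested genes. Control P4 was the highest of the 6 libraries for 41 genes (54.7%), compared with 31.9% of tested genes, and the lowest for 4 (5.3%), compared with 23.9%.

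MRPL10, the base of the large subunit's stalk, had the widest range over the 6 libraries, 1.09. Its log2 values were 8.85 and 8.98 in the passage 6 controls, against 9.73 in control P4, with 8.64 and 8.99 in the -EGF libraries and 9.17 in the library labelled BRCA2 P4. Control P4 stood above all others, and MRPL10 fell by 0.82 ± 0.17 at passage 6 (SE, limma adjusted p = 0.0409). MRPL34, a relative of bacterial L34, had 8.24 and 8.07 in the passage 6 controls, against 8.85 in control P4, and fell by 0.69 ± 0.12 (SE, adjusted p = 0.0314). MRPL2, whose bacterial relative lies near the peptide-bond site, fell by 0.60 ± 0.14 (SE, adjusted p = 0.0469). The others that fell were MRPL54 (-0.51), MRPS30 (-0.51), MRPS2 (-0.49), MRPS26 (-0.49) and MRPL36 (-0.44). Control P4 was the highest library for each of these 8. That it lay above the passage 6 controls follows from the choice of these genes. MRPL46, a mitochondria-specific protein, had 7.15 and 7.16 in the passage 6 controls, against 6.57 in control P4, and rose by 0.59 ± 0.13 (SE, adjusted p = 0.0431). MRPL35, a relative of bacterial L35, had 10.76 and 10.77, against 10.34, and rose by 0.42 ± 0.09 (SE, adjusted p = 0.0435). Control P4 was the lowest library for both. Among the members with the 4 highest and 4 lowest differences, those that did not pass were MRPS14 at 0.40, MRPL53 at 0.33 and MRPS18B at -0.55.

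At passage 4 the library labelled BRCA2 P4 and control P4 can be compared as 1 library against 1, with no replicate check of their difference. Of the 75 genes 44 were below 0 and the median difference was -0.05, but the median was 0.05 with passages pooled and 0.02 under quantile normalisation, so no direction is given. No member passed (0 by limma, with 11 at an unadjusted p below 0.05), and the background is 0.0% in both directions, with 23.3% of tested genes at an unadjusted p below 0.05, compared with 14.7% of members. The count of members was 29 without -EGF library A and 29 without -EGF library B (20 lower, 9 higher in each case), which is 38.7% of members, compared with 51.8% of all tested genes in both fits. The lowest differences were MRPL10 at -0.56, with 9.17 in the library labelled BRCA2 P4 and 9.73 in control P4, MRPS18B at -0.53, MRPL2 at -0.50 and MRPS30 at -0.46. The highest were MRPL50 at 0.41, MRPL35 at 0.40, MRPS14 at 0.33 and MRPL13 at 0.32.

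Whether the difference between siRNA labels was the same in the passage 6 pair, where it includes EGF, and in the passage 4 pair was tested as a difference of differences. Its median over the 75 genes was -0.20 and 57 were below 0, compared with a median of 0.03 and 47.3% below 0 over all tested genes. No member passed (0 by limma, with 18 at an unadjusted p below 0.05), and the background is 1.65% lower and 2.21% higher. The 18 were 24.0% of members, compared with 31.0% of all tested genes at an unadjusted p below 0.05. The count was 41 without -EGF library A (54.7% of members, compared with 61.4% of tested genes) and 40 without -EGF library B (53.3%, compared with 50.8%). The smallest p-values were those of MRPL15, with a difference of differences of -0.82 (adjusted p = 0.0564), MRPL13 with -0.79 (adjusted p = 0.057) and MRPL35 with -0.68 (adjusted p = 0.0615). For MRPL15 the passage 6 difference was -0.51 and the passage 4 difference 0.31. The genes that varied least over the 6 libraries were MRPL55, with a range of 0.19, MRPL4 with 0.24 and MRPS18C with 0.25, against a median range of 0.54.

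The proteins of the mitochondrial ribosome that carry other names had values like those of the members at passage 6. All 5 were below 0, with a median of -0.29, and 0 passed. DAP3, a GTP-binding small-subunit protein, had 11.31 and 11.32 in the -EGF libraries, against 11.62 and 11.59 in the passage 6 controls, a difference of -0.29. AURKAIP1 (-0.36), CHCHD1 (-0.30) and PTCD3 (-0.11), all of the small subunit, and GADD45GIP1 (-0.29), of the large subunit, did not pass either.

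Products of the mitochondrial genome had differences above 0 in the deposited values, a direction that the messenger RNAs lost under quantile normalisation. The large and small ribosomal RNAs of the mitochondrion had passage 6 differences of 0.40 for MT-RNR2 and 0.14 for MT-RNR1, neither past the threshold (adjusted p = 0.132 and 0.27). MT-RNR2 had log2 values of 18.67 and 19.04 in the -EGF libraries, against 18.46 and 18.45 in the passage 6 controls. The purification kept polyadenylated RNA, so these values need not follow the amount of ribosomal RNA. Of 13 mitochondrially encoded mRNAs 13 were above 0 at passage 6, with a median of 0.16, and 0 passed, but 7 of 13 were below 0 under quantile normalisation. Without -EGF library A 4 of 13 were below 0, with 2 that fell and 4 that rose, and without -EGF library B 12 of 13 rose, in fits that called 60.7% and 47.2% of all tested genes. Set against the library labelled BRCA2 P4, 9 of 13 rose in the -EGF libraries, compared with 7.41% of all tested genes, with a median of 0.62. In the controls 2 of 13, MT-ND4L and MT-ND5, rose at passage 6 relative to passage 4, compared with 7.71% of all tested genes. The median of the 13 was 0.39. These counts of 9 and 2 were both 0 with either passage 6 control left out. The count of 9 was 3 under quantile normalisation, with a median of 0.20, and 13 without -EGF library A or without -EGF library B. The count of 2 was 3 under quantile normalisation and 11 without -EGF library A or without -EGF library B. The fits without a -EGF library called 60.1% to 66.7% of all tested genes in these comparisons.

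**Figure D4:**
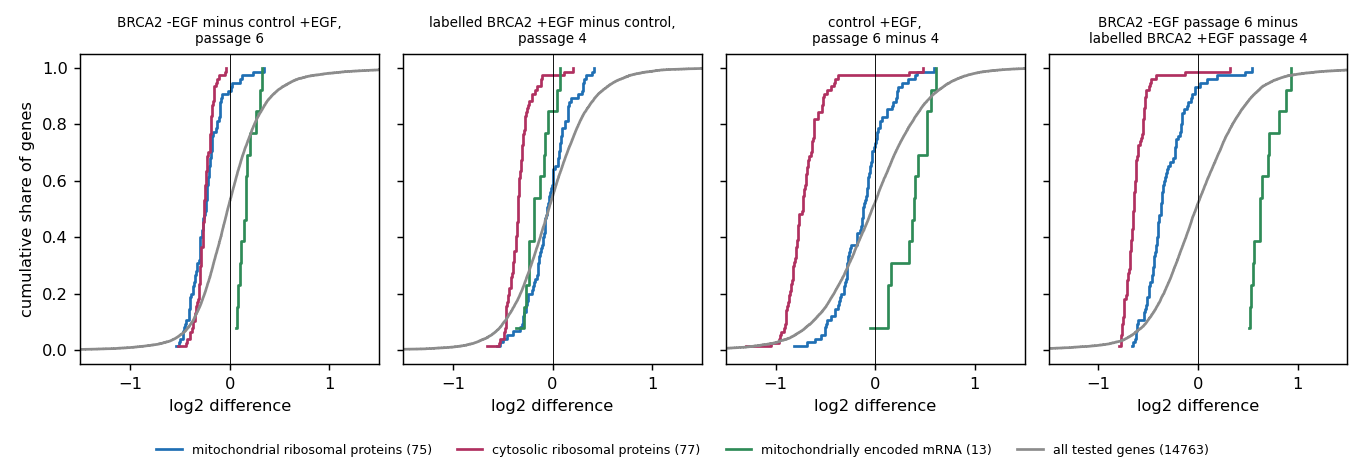
Cumulative share of genes (y axis) at or below a log2 difference (x axis, shown from -1.5 to 1.5) in the 4 comparisons, for mitochondrial ribosomal protein genes, cytosolic ribosomal protein genes, mitochondrially encoded mRNAs and all tested genes. At passage 6 both ribosomal protein curves lie left of all tested genes (medians of -0.24 for the mitochondrial and of -0.26 and -0.25 for the large and small cytosolic subunits, against -0.02); between passages in control cells the cytosolic curve lies much further left than the mitochondrial one.

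Cytosolic ribosomal protein genes gave a comparison for the size of these differences. At passage 6 their medians were -0.26 for 45 large-subunit and -0.25 for 32 small-subunit genes. All 45 and all 32 were below 0, and 1 and 0 fell, compared with 2.88% of all tested genes. Mitochondrial and cytosolic ribosomal protein genes thus had medians within 0.02 of each other. Under quantile normalisation they were further apart, at -0.18 for both cytosolic subunits and -0.22 for the mitochondrial genes. Without -EGF library A 38 of 45 and 27 of 32 fell, and without -EGF library B 44 of 45 and 31 of 32, fits in which 32.6% and 28.5% of all tested genes were lower. Between passages in control cells the cytosolic medians were -0.73 and -0.75, with 44 of 45 and 29 of 32 that fell, compared with 12.4% of all tested genes. The median of the mitochondrial genes was -0.12. None of the 45 or of the 32 fell with either passage 6 control left out (0 by limma in each case), while their medians stayed between -0.77 and -0.71. At passage 4 the cytosolic medians were -0.35 in both subunits, against -0.05 for the mitochondrial genes. A difference between the 2 families was not tested.

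Genes that build and serve the mitochondrial ribosome were also examined. Of 23 tested assembly factors, 18 were below 0 at passage 6, with a median of -0.15, and 2 (8.7%) fell, compared with 2.88% of all tested genes. TFB1M, which methylates the small ribosomal RNA, had 8.47 and 8.61 in the -EGF libraries, against 9.27 and 9.11 in the passage 6 controls, and fell by 0.65 ± 0.10 (SE, limma adjusted p = 0.0375). MALSU1, which binds the large subunit during assembly, had 8.61 and 8.54, against 9.05 and 9.04, and fell by 0.47 ± 0.08 (SE, adjusted p = 0.0422). The count of 2 was 0 with either passage 6 control left out, 11 without -EGF library A (9 lower, 2 higher) and 11 without -EGF library B (all lower), that is 47.8% each time, in fits that called 60.7% and 47.2% of all tested genes. Of 16 translation factors 13 were below 0, with a median of -0.19, and 0 passed. Among 10 genes of mitochondrial DNA maintenance and transcription 9 were below 0, with a median of -0.11 and 0 that passed: TFAM, which packs mitochondrial DNA, had a difference of -0.43 (adjusted p = 0.0658) and POLRMT, the mitochondrial RNA polymerase, -0.12 (adjusted p = 0.525).

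Of 12 tested regulators of nuclear genes for mitochondria, 8 were below 0 at passage 6, with a median of -0.08. Of all tested genes 2.88% fell, and of these 12 regulators 1 did. That was ATF5, a transcription factor of the mitochondrial stress response, with 7.41 and 7.19 in the -EGF libraries, against 7.91 and 8.03 in the passage 6 controls, a fall by 0.68 ± 0.12 (SE, limma adjusted p = 0.0453). It did not pass with either passage 6 control left out, and over all alternatives its difference was between -0.78 and -0.57. The activators whose letters were searched in promoters showed differences of -0.12 for NRF1, -0.13 for GABPA, an ETS family member, and 0.02 for YY1, none past the threshold. PPRC1, a co-activator, had -0.15 and MYC -0.11, neither past the threshold.

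Promoter windows from RefSeq (GRCh38.p14, 250 bases before to 50 after the start) were found for 66 of the 75 genes. They were searched on both strands for the letters of 4 motifs known from genes for mitochondrial proteins: GCGC, any base and TGCGC for NRF1, CCGGAAG for ETS factors, AAGATGGCG for YY1 and CACGTG for the E-box. No motif holds another, though the ETS and YY1 letters can share AAG, and an NRF1 match and an ETS match could share bases. Of 4 members with both ETS and YY1 letters, 0 had matches that share bases. ETS letters were in 40.9% of members' windows, compared with 19.3% of 10456 tested genes and 10.7% of all 27305 genes with a RefSeq window. YY1 letters were in 19.7%, compared with 4.0% and 1.8%. NRF1 letters were in 9.1%, compared with 11.9% and 6.3%, and the E-box in 7.6%, compared with 9.8% and 7.4%. None of the 4 was in 36.4%, compared with 62.5% and 77.5%. The median GC content was 60.7% in members, compared with 65.3% and 58.3%. ETS and YY1 letters were thus more frequent in the members' windows than in those of tested genes, and the other 2 were not; no test of these shares was made.

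**Figure D5:**
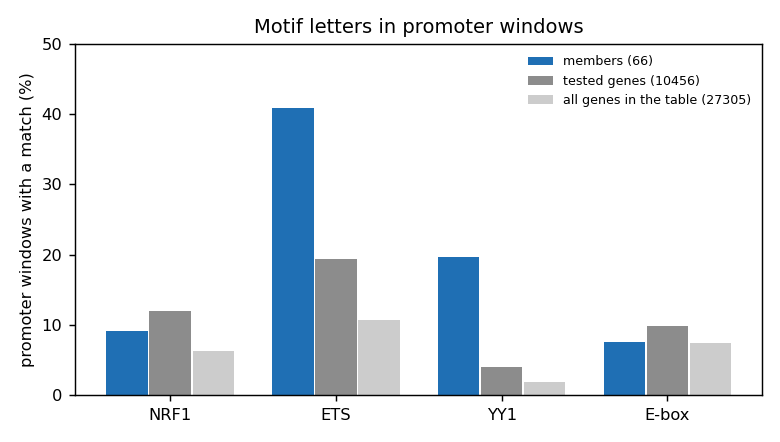
Bars give the percentage of RefSeq promoter windows with at least 1 exact match to each motif on either strand. The sets are 66 mitochondrial ribosomal protein genes, 10456 tested genes and all 27305 genes with a RefSeq window. The legend names this last set all genes in the table. ETS (40.9% against 19.3%) and YY1 (19.7% against 4.0%) letters are more frequent in members than in tested genes.

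Members with and without a motif had medians below 0 at passage 6, and no difference between them was tested. The median was -0.23 in 27 genes with ETS letters (23 below 0, 3 that fell) and -0.24 in 39 without (37 below 0, 3 that fell). It was -0.18 in 13 with YY1 letters (10 below 0, 0 that fell) and -0.26 in 53 without (50 below 0, 6 that fell). For the other 2 motifs it was -0.26 in 6 genes with NRF1 letters and -0.23 in 60 without, and -0.29 in 5 with an E-box and -0.24 in 61 without.

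The 250 bases before the start are shown for MRPL33, the highest member, and for 4 genes that fell at passage 6. These 4 were the genes that fell whose windows held motif letters, so that the same letters can be set beside different responses. Of the other genes that fell, MRPS6 and MRPL39 had none of the motifs and are not shown. No window was found for MRPL13 or MRPL15. Capitals mark a motif on either strand.
MRPS23 (chr17:57850045-57850294, minus strand): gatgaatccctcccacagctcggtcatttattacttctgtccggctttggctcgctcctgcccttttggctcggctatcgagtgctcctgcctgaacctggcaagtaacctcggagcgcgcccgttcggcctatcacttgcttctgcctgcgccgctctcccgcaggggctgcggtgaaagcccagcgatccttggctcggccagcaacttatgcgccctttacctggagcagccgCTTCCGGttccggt
MRPL20 (chr1:1407294-1407543, minus strand): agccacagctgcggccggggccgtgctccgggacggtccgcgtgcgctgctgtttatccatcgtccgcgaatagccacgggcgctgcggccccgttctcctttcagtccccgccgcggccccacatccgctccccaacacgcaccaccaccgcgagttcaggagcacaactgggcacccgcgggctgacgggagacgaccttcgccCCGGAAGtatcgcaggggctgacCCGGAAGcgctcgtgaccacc
MRPL3 (chr3:131502972-131503221, minus strand): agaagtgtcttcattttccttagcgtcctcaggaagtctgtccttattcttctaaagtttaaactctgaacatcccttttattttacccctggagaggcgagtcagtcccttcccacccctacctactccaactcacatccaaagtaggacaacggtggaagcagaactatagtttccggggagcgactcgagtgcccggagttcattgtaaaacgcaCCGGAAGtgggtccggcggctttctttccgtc
MRPL17 (chr11:6683341-6683590, minus strand): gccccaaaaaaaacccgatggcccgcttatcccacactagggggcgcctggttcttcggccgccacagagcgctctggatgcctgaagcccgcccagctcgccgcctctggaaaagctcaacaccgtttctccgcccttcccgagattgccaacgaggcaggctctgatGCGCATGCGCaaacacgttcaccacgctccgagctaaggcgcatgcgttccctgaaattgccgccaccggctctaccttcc
MRPL33 (chr2:27771469-27771718, plus strand): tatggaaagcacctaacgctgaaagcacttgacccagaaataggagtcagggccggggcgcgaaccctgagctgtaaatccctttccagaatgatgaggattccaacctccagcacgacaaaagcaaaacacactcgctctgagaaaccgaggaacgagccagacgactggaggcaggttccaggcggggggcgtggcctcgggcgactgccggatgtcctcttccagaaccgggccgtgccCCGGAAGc
The capitals are ETS letters in MRPS23, in MRPL3, in MRPL33 and at 2 places in MRPL20, within 44 bases before the start in each, and NRF1 letters in MRPL17. MRPL33 thus shares the ETS letters of genes that fell and had a difference of 0.34, against -0.54 for MRPS23, -0.47 for MRPL20 and -0.41 for MRPL3. The difference of MRPL33 did not pass (limma adjusted p = 0.128), and 21% of its exon bases are shared with BABAM2. A part of the letters in these differences was not tested.

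Of 14 YY1 matches in 13 members, 10 begin at or after the start of the gene. Short windows are shown for the 3 members with YY1 letters that had the lowest differences and for the 3 that were not below 0, with the letters in capitals.
MRPL42 (chr12:93467512-93467540, plus strand): ggattgaaacAAGATGGCGggttcgtggt
MRPL22 (chr5:154941098-154941122, plus strand): gggagggcgaAAGATGGCGgcggca
MRPL36 (chr5:1799855-1799883, minus strand): ccccccccgcCGCCATCTTccttcctggc
MRPS18A (chr6:43687764-43687792, minus strand): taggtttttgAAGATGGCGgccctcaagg
MRPS24 (chr7:43869480-43869508, minus strand): cgcttggcccAAGATGGCGgcctccgtgt
MRPL38 (chr17:75904860-75904888, minus strand): ggccggagggAAGATGGCGgcgccctggt
The letters begin 8 bases after the start in MRPL42 and 35 after it in MRPL22, and 36 before it, on the other strand, in MRPL36. They begin 9 bases after the start in MRPS18A, 19 in MRPS24 and 6 in MRPL38. The passage 6 differences were -0.40 for MRPL42, -0.30 for MRPL22 and -0.29 for MRPL36, against 0.01 for MRPS18A, 0.02 for MRPS24 and 0.23 for MRPL38, none past the threshold.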

How the data were processed

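Per the labels' protocols, ScriptSeq libraries were made from column-extracted RNA after mRNA capture on beads, 1 for each of 6 samples. The submitters' processing notes name TopHat2 2.0.11, DESeq2 without a version, and hg19; a read counter, gene models and the log transformation are not stated there. A single table of normalised log2 values was deposited for 57820 Ensembl rows, from -1.98 to 19.93, with 25986 rows at 0 in every library. Values below 0 without counts leave depth unknown, and a transformation that shrinks low values would understate their differences. All 6 columns were matched by name and 0 were left over. Symbols were matched to 89.9% of rows and 96.4% of tested genes.

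The members, the gene lists and the tests were chosen with earlier results of these data known. One limma fit (limma 3.58.1, R 4.3.3, trend and robust prior, two-sided) held 4 groups of siRNA, medium and passage, with 2 residual degrees of freedom, over 14763 genes with a mean linear value of at least 10. Calls have a Benjamini-Hochberg adjusted p below 0.05. Lone libraries were assumed to vary like the others. The labels call A and B biological replicates without saying whether they were separate cultures or transfections, so p-values measure the spread between libraries, which may be technical. In data simulated for the passage 6 comparison, 200 of 14763 genes were changed. Of log2 changes of 1, 49% were recovered, and of changes of 2, 82%, with 1 false call. The differences of members were smaller. In the real comparison 31.5% of tested genes had an unadjusted limma p below 0.05, so these rates need not carry over to it.

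Members named are, per comparison, those past the threshold (the 10 of smallest p where more passed) and the 4 highest and 4 lowest differences, plus the 3 smallest p of the difference of differences and the 3 widest and narrowest ranges. MRPS36, MRPS24, MRPS18A, MRPL12, MRPS28, MRPL42, MRPL22 and, outside the members, YY1 were named after their values were seen. Other lists were described by counts and medians. Exon overlaps came from GENCODE v29 (GRCh38) and promoters from RefSeq, other builds than hg19.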

Additional observations from a re-analysis of the deposited data

How the results depend on the processing

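Over the 16 alternatives most member counts changed, under rescalings as well as other estimates of the spread, while the directions of the members' medians held except at passage 4. Alternatives that change only the spread or the adjustment cannot move a median. The passage 6 median was thus the same, -0.2385, with no filter, without trend and robust prior, and with controls averaged. It was also the same with either replicate block and without a passage 4 library. Members past the threshold at passage 6 (8) were 0 with passages pooled, 0 with no filter, 4 median centred, 0 quantile normalised, 1 without trend and robust prior, 0 with controls A and B averaged, 4 with the replicate block, and 0 to 60 with a library left out. Their median (-0.24) was -0.30 with passages pooled and -0.26 to -0.24 with a library left out. At passage 4 the count (0) was 0 to 29. The median at passage 4 (-0.05) was 0.0515 with passages pooled, -0.0059 median centred and 0.0199 quantile normalised. It was also -0.05 with any passage 6 library left out, but those libraries do not enter this difference, so it could not move. Without a passage 4 library the comparison could not be made.

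For the controls between passages the count (10) was 0 with no filter, 5 median centred, 3 quantile normalised, 6 without trend, 0 with controls averaged, 3 with the replicate block, 2 with the crossed block and 0 to 44 with a library left out. The median (-0.12) was -0.0469 centred, -0.0308 quantile normalised and -0.13 to -0.10 with a library left out. For the libraries labelled BRCA2 siRNA the count (24) was 0 pooled, 0 with no filter, 15 centred, 9 quantile normalised, 15 without trend, 0 with controls averaged, 1 with the replicate block, 10 with the crossed block and 0 to 65 with a library left out. The median (-0.37) was -0.32 centred and -0.32 quantile normalised, and -0.38 to -0.35 with a library left out. For the difference of differences the count (0) was 2 with the crossed block and 0 to 41 with a library left out, and the median (-0.20) was -0.26 quantile normalised and -0.23 to -0.20 with a library left out. Leaving out a -EGF library leaves the close control pair as the only replicates, and leaving out a control leaves the -EGF pair; beyond this the cause was not tested.

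The A minus B differences of the 2 passage 6 groups correlated only weakly, with r = -0.172 over all 14763 tested genes and r = 0.138 over the 75 members. With 2 pairs and no shared culture or day in the labels, the letters were not taken as a pairing. The crossed block, added after the data were seen, gave 10 members at passage 6. Of named members, MRPS17 changed sign at passage 6 under quantile normalisation (-0.0066) and MRPL53 without control B (-0.0295) and without -EGF library A (-0.0123), within a range of -0.0295 to 0.2847 with a library left out. Depth is unknown, so which low differences it could resolve is not known.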

Other observations

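Proteins of the mitochondrial ribosome reach it through the import machinery, whose genes had differences of similar size at passage 6. Of 17 tested genes of import and mitochondrial protein quality control, 17 were below 0, with a median of -0.24, and 0 passed. HSPD1, the mitochondrial chaperonin, had log2 values of 14.33 and 14.02 in the -EGF libraries, against 14.78 and 14.81 in the passage 6 controls, a difference of -0.62 ± 0.12 (SE, limma adjusted p = 0.0558). TOMM22, an import receptor of the outer membrane, had 10.82 and 10.56, against 11.25 and 11.23, a difference of -0.55 ± 0.11 (SE, adjusted p = 0.0554). TOMM40, the channel of the outer membrane, had 10.59 and 10.46, against 10.94 and 10.97, a difference of -0.43 ± 0.08 (SE, adjusted p = 0.0519). For these genes both -EGF libraries lay below both passage 6 controls, as was the case for 35.7% of all tested genes. They were picked by the smallest p in this comparison, so that order adds nothing to it.

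Of 20 genes for charging mitochondrial transfer RNAs, 15 were below 0 at passage 6, with a median of -0.10, and 0 passed. MARS2, which charges the methionine transfer RNA, had 7.89 and 7.79 in the -EGF libraries, against 8.34 and 8.27 in the passage 6 controls, a difference of -0.46 ± 0.09 (SE, adjusted p = 0.0553). Between passages in control cells WARS2, which charges the tryptophan transfer RNA, fell by 0.57 at passage 6 relative to passage 4, though it did not pass without control A or without control B. Over 13 alternatives its difference was -0.61 to -0.49.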
